A study of Mus musculus with 6 samples.

Results

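The genes described are imprinted genes, among them Peg3, Zim1, Asb4 and Nnat, in cultured neural stem cells and progenitors of adult mice with and without active SIRT1. The list of 42 genes was drawn up because Peg3, Zim1, Asb4 and Nnat had lower values in these same samples without active SIRT1, so the differences between the genotypes given for its members are a description and carry no test. A probe set paired with exactly 1 gene measured 35 of the 42, out of 19937 genes measured in this way on the array, and each of the 35 had a single such probe set. Snrpn, Ube3a, Mirg and Gnas were covered only by probe sets shared with other genes, and H19, Kcnq1ot1 and Zrsr1 had no probe set in the annotation used. These 7 genes were not analysed here.

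Expression was measured on 1-colour Affymetrix whole-transcript arrays, with 1 array for each of 6 cultures. The control cultures (n = 3) came from Sirt1lox/lox mice, which carry floxed Sirt1 alleles and no Cre. The Sirt1 inactive cultures (n = 3) came from NestinCre;Sirt1lox/lox mice, in which a Cre recombinase driven by the Nestin promoter acts in neural stem and progenitor cells. All mice were of the 129SV strain and 8 weeks old, and all cells were grown with EGF and bFGF as neurospheres, replated on a coated surface and collected while dividing at passage 2. No control carried Cre alone, so an effect of Cre and the loss of active SIRT1 cannot be told apart. The titles call the cultures of a genotype biological replicates; how many mice each came from is not stated in the labels.

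Imprinted genes are transcribed mainly from the allele inherited from a given parent, through DNA methylation set in the germ line at control regions that each govern a neighbourhood, or domain, of genes. In brain many of them are strongly expressed during development, and several act in progenitor growth and in the maintenance of stem cells. The arrays read the summed RNA of both alleles and of the isoforms a probe set covers, so neither the parental origin of a transcript nor a loss of imprinting can be read from these values.

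Sirt1 itself read 8.73, 8.78 and 8.55 in control replicates 1 to 3 and 8.26, 8.33 and 8.25 in the Sirt1 inactive replicates, in log2 units. The labels do not name the floxed exons, so this probe set need not report the deletion in full. The progenitor markers Nes and Sox2 read between 11.55 and 11.78 on all 6 arrays, where the array medians were 7.36 to 7.39. Control replicate 3 stood apart from the rest: over the tested probe sets its median absolute deviation from the mean of the other arrays was 0.117, where the other 5 arrays had 0.059 to 0.089. Samples with the same replicate number deviated together from their group means, with correlations over the tested probe sets of 0.47, 0.36 and 0.27 for numbers 1, 2 and 3, so differences within same-numbered pairs are given as well. Of 22961 probe sets with a gene, 0 (0%) passed an adjusted p of 0.05 (limma), and 830 had an unadjusted p under 0.05, or 1741 with the replicate number as a block.

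Promoters of 5 genes with wide differences are shown to set their sequences, and the CpG dinucleotides in them, side by side. Imprinted methylation lies at the control region of a domain, which need not be a gene's own promoter, and methylation was not measured here. Each window runs from 250 bases before to 50 bases after a RefSeq transcription start in build GRCm38.p6, written 5′ to 3′ along the gene's strand, with every CpG in capitals. Peg3 (chr7:6730370-6730669, minus strand), Zim1 (chr7:6696383-6696682, minus strand), Asb4 (chr6:5383136-5383435, plus strand, the upstream of 2 starts), Nnat (chr2:157559828-157560127, plus strand) and Grb10 (chr11:12037371-12037670, minus strand, the upstream of 2 starts) read as follows.
Peg3: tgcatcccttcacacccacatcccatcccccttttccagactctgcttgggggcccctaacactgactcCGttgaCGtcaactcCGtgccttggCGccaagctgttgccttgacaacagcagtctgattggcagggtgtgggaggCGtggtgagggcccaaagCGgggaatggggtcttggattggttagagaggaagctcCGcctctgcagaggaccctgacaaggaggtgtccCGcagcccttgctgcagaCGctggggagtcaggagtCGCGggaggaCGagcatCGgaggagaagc
Zim1: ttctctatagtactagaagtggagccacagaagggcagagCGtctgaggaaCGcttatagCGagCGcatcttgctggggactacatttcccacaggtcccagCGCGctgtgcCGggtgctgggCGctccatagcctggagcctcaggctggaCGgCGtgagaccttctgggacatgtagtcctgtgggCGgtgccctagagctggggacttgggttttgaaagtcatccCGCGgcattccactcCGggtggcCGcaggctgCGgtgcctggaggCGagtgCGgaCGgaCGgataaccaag
Asb4: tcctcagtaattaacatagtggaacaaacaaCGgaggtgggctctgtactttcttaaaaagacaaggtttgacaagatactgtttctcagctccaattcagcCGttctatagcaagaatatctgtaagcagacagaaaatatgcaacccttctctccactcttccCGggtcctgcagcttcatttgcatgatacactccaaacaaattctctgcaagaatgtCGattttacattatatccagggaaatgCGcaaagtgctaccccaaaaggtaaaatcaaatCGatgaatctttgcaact
Nnat: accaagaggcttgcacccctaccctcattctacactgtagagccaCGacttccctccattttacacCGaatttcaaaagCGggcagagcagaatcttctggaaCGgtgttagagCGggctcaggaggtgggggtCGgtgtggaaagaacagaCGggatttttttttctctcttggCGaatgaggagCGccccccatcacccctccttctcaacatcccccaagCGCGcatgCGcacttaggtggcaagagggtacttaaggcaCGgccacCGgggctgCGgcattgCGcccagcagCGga
Grb10: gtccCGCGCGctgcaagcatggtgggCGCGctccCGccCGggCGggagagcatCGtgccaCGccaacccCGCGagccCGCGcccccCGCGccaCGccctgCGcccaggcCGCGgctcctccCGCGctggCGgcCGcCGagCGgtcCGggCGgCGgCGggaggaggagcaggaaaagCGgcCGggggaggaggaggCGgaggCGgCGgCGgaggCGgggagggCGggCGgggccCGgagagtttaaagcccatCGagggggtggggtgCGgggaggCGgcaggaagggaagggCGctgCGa

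These windows differ widely in CpG number. The Grb10 window held 45 CpGs, more than 98.1% of the 32851 promoter windows in the table, Zim1 held 20, Nnat 17, Peg3 13 and Asb4 6. The median over all windows was 7 CpGs, and over the 48 windows of the 34 listed genes with an entry it was 13. Peg3 and Usp29 are transcribed away from each other from starts 164 bases apart, and their windows share 263 bases, so Usp29 is not printed separately. The hexamer TGCCGC, which the imprint-protecting zinc finger protein ZFP57 recognises when its CpG is methylated, was found on either strand in the Zim1, Nnat and Grb10 windows shown and not in those of Peg3 or Asb4. It occurred in 10 of the 48 windows (20.8%) and in 11.6% of all windows. Windows of the same gene can overlap and are each counted, as for Mest starts 2 and 3, which both held the hexamer. The motif GCCATNTT, a core recognised by the factor YY1, occurred on either strand in 2 of the 48 windows (4.17%) and in 6.05% of all windows, and in none of the 5 windows printed above. A match to either motif is a description of sequence alone.

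Over all 35 genes, 24 had a difference below 0 and 11 above, where 60.1% of the tested probe sets were below 0. With array medians subtracted, 21 of the 35 and 48.9% of the tested probe sets were below 0. The median difference was -0.05, against -0.02 over all tested probe sets. Groups did not overlap for 4 genes, all lower (Usp29, Sgce, Nnat and Grb10), where 6.71% of tested probe sets were lower without overlap and 2.62% higher. All 3 pairs were lower for 10 genes and all 3 higher for Inpp5f, beside 20.7% and 10.9% of tested probe sets. Among the 35, 0 passed when p-values were adjusted over the whole table (limma, smallest adjusted p = 0.959), and 4 had an unadjusted p under 0.05, all lower, beside 2.63% lower and 0.984% higher among tested probe sets. Because the list was drawn up from this contrast, nothing is read from these counts.

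**Figure D1:**
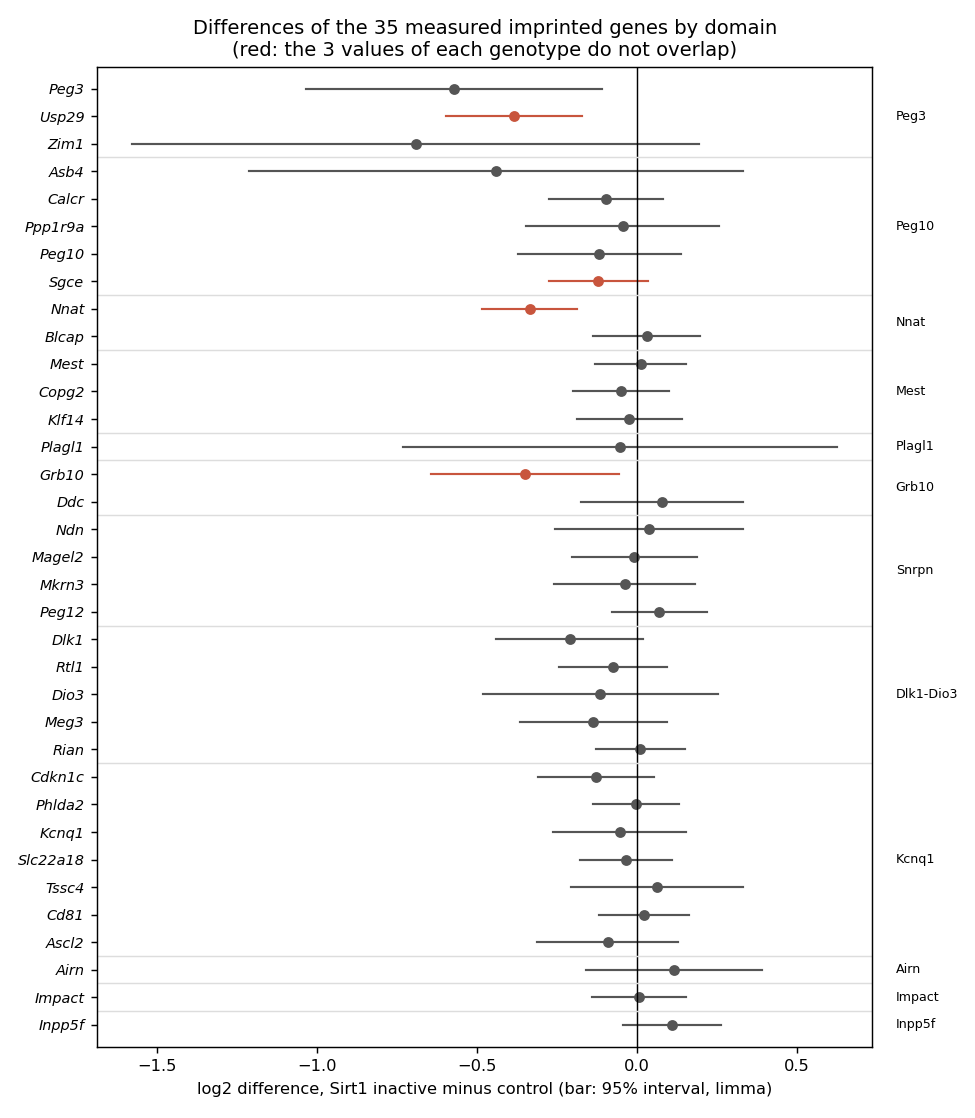
Log2 difference, Sirt1 inactive minus control (horizontal axis), of the 35 measured imprinted genes with its 95% interval from limma, grouped by domain; red marks genes whose 3 values per genotype do not overlap. Usp29, Sgce, Nnat and Grb10 are red, and the intervals of Zim1, Asb4 and Plagl1 are the widest.

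The Peg3 domain held both of the largest differences, those of Zim1 and Peg3. Peg3 encodes a large zinc finger protein made from the paternal allele and acting in growth and maternal behaviour. It read 11.19, 10.77 and 10.51 in control replicates 1 to 3 and 10.54, 9.998 and 10.21 in the Sirt1 inactive replicates. The highest Sirt1 inactive value stood just above the lowest control value, so the groups overlapped. Its means were 10.82 ± 0.34 in control and 10.25 ± 0.27 without active SIRT1 (SD, n = 3), a log2 difference of -0.57 (SE 0.20, 95% interval -1.04 to -0.11), or 0.672 times control. Within pairs the difference was -0.65, -0.77 and -0.30.

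Usp29, a deubiquitinase gene that starts head to head with Peg3 and is also expressed from the paternal allele, read 6.51, 6.66 and 6.62 in control and 6.38, 6.16 and 6.10 without active SIRT1. All 3 Sirt1 inactive values lay below all control values, with a difference of -0.39 (SE 0.09). Every array read Usp29 below the array median. Within pairs it was -0.12, -0.51 and -0.52.

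Zim1, a zinc finger gene of the same domain expressed from the maternal allele, read 8.47, 7.77 and 6.82 in control and 7.25, 6.77 and 6.96 without active SIRT1. Its difference of -0.69 was the largest of the 35, but its standard error was 0.38 and its 95% interval ran from -1.58 to 0.19. Control replicate 3 lay among the Sirt1 inactive values, and within pairs the difference was -1.22, -1.0 and 0.14. The spread of Zim1 among the 3 control cultures (SD 0.83) exceeded that of 99.4% of the single-gene probe sets, against 96.2% for its spread among the Sirt1 inactive cultures (SD 0.25).

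The other protein-coding genes nearest to Peg3 in RefSeq order, picked after the values were seen, were Aurkc, Zfp954 and Zfp773 on the side of Usp29 and Olfr1348, Olfr1349 and Olfr1350 on the side of Zim1. Their differences ran from -0.15 for Olfr1350 to 0.03 for Zfp954, and the groups overlapped for all 6.

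**Figure D2:**
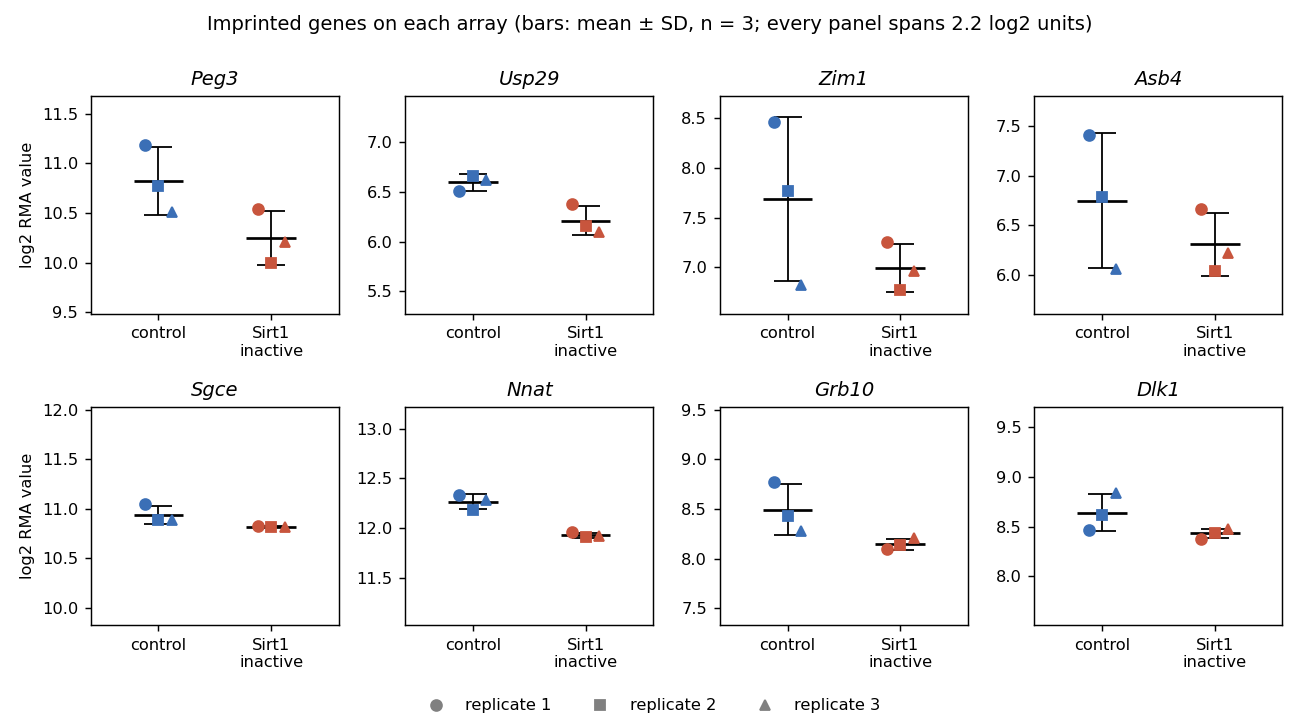
Log2 RMA values (vertical axis) of 8 imprinted genes in the 3 control (blue) and 3 Sirt1 inactive (red) cultures, with the mean and SD of each group as bars and the replicate number as the marker shape; every panel spans the same height. Nnat, Usp29, Sgce and Grb10 have separate groups, while control replicate 3 of Zim1 (6.82) and Asb4 (6.06) sits among the Sirt1 inactive values.

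In the domain named after Peg10, Asb4 had the widest difference. Asb4 encodes a substrate adaptor of ubiquitin ligases and is expressed from the maternal allele. It read 7.41, 6.78 and 6.06 in control and 6.66, 6.04 and 6.22 without active SIRT1, with overlapping groups and a difference of -0.44 (SE 0.33, 95% interval -1.21 to 0.33). Within pairs it was -0.75, -0.74 and 0.17, the same pattern as Zim1. Zim1 and Asb4, which lie in different domains, placed the 6 arrays in the same order. From the highest down it was control replicates 1 and 2, Sirt1 inactive replicates 1 and 3, control replicate 3 and Sirt1 inactive replicate 2. How many other probe sets share this order was not counted, so nothing is read from it.

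Sgce, the epsilon-sarcoglycan gene, read 11.04, 10.88 and 10.88 in control and 10.82, 10.81 and 10.82 without active SIRT1. Its groups did not overlap, though the difference was only -0.12 (SE 0.07). Peg10, a paternally expressed gene derived from a retrotransposon that starts beside Sgce, differed by -0.12 (SE 0.11), the calcitonin receptor gene Calcr by -0.10 (SE 0.08) and Ppp1r9a, which encodes the actin-binding protein neurabin, by -0.05 (SE 0.13), each with overlapping groups. All 5 members listed under this domain were below 0, where 60.1% of tested probe sets were, and the 95% interval of each included 0. The genes beside Asb4, picked after the values were seen, did not share its sign throughout. The paraoxonase genes Pon2 and Pon3, which stand in the separate list of other imprinted genes described below, differed by 0.30 and 0.34. The kinase gene Pdk4 differed by 0.22. Slc25a13 differed by 0.14, Sem1 by -0.03, Pon1 by -0.05 and Dync1i1 by -0.07, and the groups overlapped for all 7.

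Nnat had separate groups and little spread within them. It encodes neuronatin, a small membrane protein of the developing brain made from the paternal allele. Its control values were 12.33, 12.18 and 12.28 and its Sirt1 inactive values 11.96, 11.91 and 11.92. The groups were separate, at 12.26 ± 0.08 and 11.93 ± 0.03 (SD, n = 3), a difference of -0.34 (SE 0.06) or 0.792 times control. Within pairs the difference was -0.37, -0.27 and -0.36.

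Blcap, the gene in whose intron Nnat lies, ran from 8.83 to 8.94 in control and from 8.80 to 8.96 without active SIRT1, a difference of 0.03 (SE 0.07). The next measured protein-coding genes in RefSeq order, picked after the values were seen, were Src and Manbal on the side of Blcap and Ctnnbl1, Vstm2l, Tti1 and Rprd1b on the other. Vstm2l differed by -0.16 (SE 0.06) and Manbal by -0.11 (SE 0.07), and for both all Sirt1 inactive values lay below the control values. Among tested probe sets 6.71% were lower without overlap, so nothing particular to these neighbours is read from this. Src differed by -0.14 (SE 0.09), Ctnnbl1 by -0.03 (SE 0.12), Tti1 by -0.02 (SE 0.06) and Rprd1b by 0.001 (SE 0.05), each with overlapping groups.

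The Mest domain showed small differences. Mest, a paternally expressed hydrolase-like gene, differed by 0.01 (SE 0.06) with values between 12.58 and 12.70 on all 6 arrays, and Klf14, a maternally expressed transcription factor gene, by -0.02 (SE 0.07). Copg2, which encodes a coatomer subunit, read 10.64, 10.49 and 10.62 in control and 10.50, 10.55 and 10.56 without active SIRT1, a difference of -0.05 (SE 0.06).

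Grb10 encodes an adaptor that restrains insulin and IGF receptor signalling, and its expressed allele differs between neurons and other tissues. It read 8.77, 8.43 and 8.27 in control and 8.09, 8.14 and 8.21 without active SIRT1. All Sirt1 inactive values lay below the control values, the closest pair being number 3, and the difference was -0.35 (SE 0.12, 95% interval -0.64 to -0.06). Within pairs it was -0.68, -0.30 and -0.07. Ddc, the neighbouring gene for the decarboxylase of dopamine and serotonin synthesis, differed by 0.08 (SE 0.11).

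Plagl1 encodes a zinc finger factor, also called Zac1, that regulates other imprinted genes. Its array values, shown after they were seen because its spread was wide, were 9.47, 8.98 and 8.23 in control and 8.96, 8.61 and 8.95 without active SIRT1. Its mean difference was -0.05 (SE 0.29), while its spread among control cultures (SD 0.62) exceeded that of 98.7% of single-gene probe sets. As with Zim1 and Asb4, the highest value was that of control replicate 1, and control replicate 3 was the lowest of all 6 here.

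**Figure D3:**
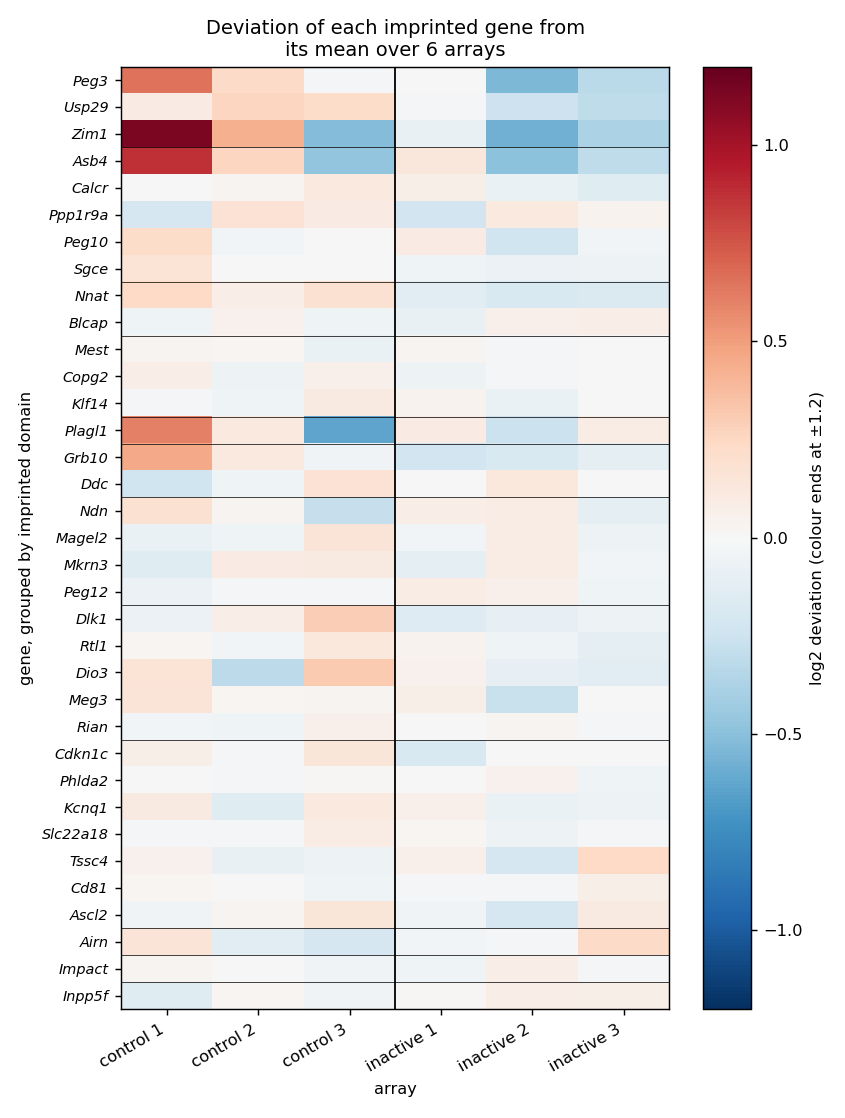
Deviation of each of the 35 imprinted genes (rows, grouped by domain) from its own mean over the 6 arrays (columns), in log2 units, red above and blue below the mean. Peg3, Zim1, Asb4 and Plagl1 are highest in control replicate 1, and most of the other rows stay pale on every array.

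The domain of Prader-Willi and Angelman syndromes, controlled from Snrpn, was measured through Ndn, Magel2, Mkrn3 and Peg12, all expressed from the paternal allele. Ndn, which encodes the growth suppressor necdin, differed by 0.04 (SE 0.13), its relative Magel2 by -0.01 (SE 0.08) and the ubiquitin ligase gene Mkrn3 by -0.04 (SE 0.09). Peg12 read 8.91, 8.96 and 8.96 in control and 9.07, 9.04 and 8.93 without active SIRT1, with overlapping groups and a difference of 0.07 (SE 0.06).

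In the Dlk1-Dio3 domain, Dlk1, which encodes a membrane protein related to Notch ligands that acts in neural stem cells, read 8.47, 8.62 and 8.84 in control and 8.38, 8.44 and 8.48 without active SIRT1. The groups overlapped only through control replicate 1, and the difference was -0.21 (SE 0.10, 95% interval -0.44 to 0.02). Meg3, a long non-coding RNA of the maternal allele, differed by -0.14 (SE 0.10), the thyroid hormone deiodinase gene Dio3 by -0.11 (SE 0.16), the retrotransposon-derived Rtl1 by -0.08 (SE 0.07) and the non-coding Rian by 0.01 (SE 0.06). The groups of all 5 genes overlapped. Rian read 5.19 to 5.30 on every array, under each array's own lower quartile (5.78 to 5.83), and RMA values do not show whether such a signal lies above background.

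In the Kcnq1 domain, Cdkn1c, which encodes the cell cycle inhibitor p57, read 7.63, 7.54 and 7.71 in control and 7.38, 7.56 and 7.56 without active SIRT1, a difference of -0.13 (SE 0.08) with overlapping groups. The other 6 measured genes of the domain differed by -0.09 for Ascl2, a bHLH factor gene of the placenta, to 0.06 for Tssc4. Between them lay the growth restrictor Phlda2 (-0.003), the potassium channel gene Kcnq1 (-0.05), the transporter gene Slc22a18 (-0.03) and the tetraspanin gene Cd81 (0.02), which was bright on every array (13.003 to 13.13). Of the genes measured alone in their domains, Airn, the non-coding RNA that silences Igf2r in cis, differed by 0.12 (SE 0.12), the translational regulator gene Impact by 0.01 (SE 0.06) and the inositol phosphatase gene Inpp5f by 0.11 (SE 0.07), the last higher in 3 of 3 pairs.

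Values below 0 occurred among genes listed under either parental allele. Of the 16 measured genes listed as paternally expressed, 11 were below 0, with a median of -0.06. Of the 15 listed as maternally expressed, 12 were below 0, with a median of -0.05. Imprinting can be limited to some tissues, and the allele expressed in these cultures was not measured. Among all tested probe sets 60.1% were below 0, or 48.9% with array medians subtracted. The difference between these sets was not tested.

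Leaving out single arrays moved Zim1, Asb4 and Peg3 most among the genes below -0.3. Without control replicate 1 the differences were -0.30 for Zim1, -0.11 for Asb4, -0.39 for Peg3 and -0.21 for Grb10. Without control replicate 3 they were -1.12, -0.79, -0.73 and -0.46. Nnat stayed between -0.38 and -0.30 and Usp29 between -0.47 and -0.33 whichever array was left out. Plagl1 ran from -0.38 without control replicate 3 to 0.24 without control replicate 1, so its direction turned. Asb4 was at -0.31 without Sirt1 inactive replicate 2, Dlk1 at -0.11 without control replicate 3, and Sgce at -0.07 without control replicate 1.

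**Figure D4:**
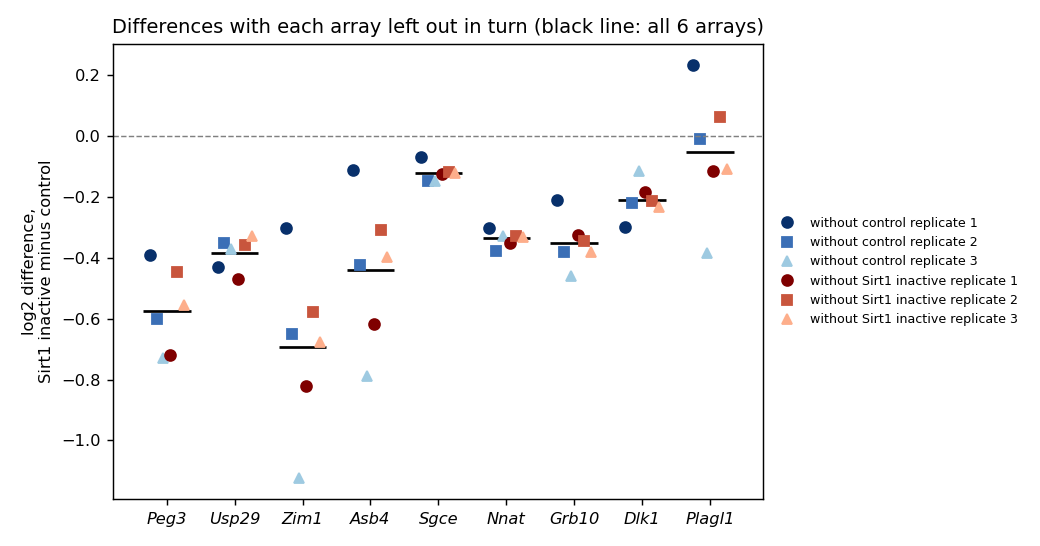
Log2 difference, Sirt1 inactive minus control (vertical axis), of 9 imprinted genes with each of the 6 arrays left out in turn (coloured markers) and with all arrays (black line). Nnat and Usp29 form tight groups, while Zim1 runs from -1.12 to -0.30 and Plagl1 lies on both sides of 0.

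A separate list of 39 other imprinted genes had 34 measured members, of which 18 were below 0 and 16 above, with a median difference of -0.005. None passed in either direction (limma), and 0 had an unadjusted p under 0.05. The widest differences were those of Dcn, a matrix proteoglycan gene imprinted in placenta, at 0.55 (SE 0.42), Pon3 at 0.34 (SE 0.20) and the lipid flippase gene Atp10a at 0.32 (SE 0.21). All 3 had their lowest value in control replicate 3, at 6.87, 6.58 and 8.75. Groups did not overlap for Slc22a2, an organic cation transporter gene (-0.08), and Mcts2, a retrogene within H13 (-0.11). Among tested probe sets 60.1% were below 0 and 6.71% were lower without overlap, so nothing particular to these genes is read from the counts. Igf2, the growth factor gene beside H19, differed by 0.09 and its clearance receptor gene Igf2r by 0.12, both with overlapping groups.

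Of 25 genes on a list of imprint maintenance genes, all were measured, 15 below 0 and 10 above, with a median of -0.02. Among tested probe sets 60.1% were below 0, with 6.71% lower and 2.62% higher without overlap. None passed in either direction (limma), 0 had an unadjusted p under 0.05, and no groups were separate. Tet1, an enzyme that oxidises methylated cytosine, differed by -0.24 (SE 0.14), Zfp57 by -0.18 (SE 0.20) and the chromatin remodeller gene Hells by 0.17 (SE 0.08). The maintenance methyltransferase gene Dnmt1 (-0.01), its partner Uhrf1 (0.02) and the corepressor gene Trim28 (-0.02) were near 0.

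Imprinted genes are expressed unevenly among cell types, and the cultures differed in marker levels. In bulk samples fewer cells of a type and less RNA per cell cannot be told apart. Beside the marker counts that follow, 60.1% of tested probe sets were below 0, or 48.9% with array medians subtracted. Neuroblast and neuron markers were below 0 for 13 of 18 genes (median -0.14), with a mean level of 8.36 to 8.59 in control and 8.28 to 8.39 without active SIRT1. Astrocyte markers were above 0 for 9 of 12 (median 0.13), at 9.84 to 10.45 in control and 10.38 to 10.49 without active SIRT1, the low value being control replicate 3. Fibroblast and mural markers were above 0 for 7 of 12 (median 0.04), at 8.30 to 8.65 against 8.46 to 8.73, and oligodendrocyte lineage markers for 4 of 12 (median -0.09), at 9.42 to 9.61 against 9.55 to 9.77 (Cspg4 stands in both of these lists). The 4 oligodendrocyte lineage markers above 0 were Pdgfra (0.79), Gpr17 (0.75), C1ql1 (0.44) and Sox10 (0.28). All 4 had groups that did not overlap and an unadjusted p under 0.05 (limma). The marker lists were chosen with earlier results of these data known, so nothing is read from this. Among tested probe sets 2.62% were higher and 6.71% lower without overlap. An unadjusted p under 0.05 with a higher value occurred in 0.984% of them and with a lower value in 2.63%, and 0 passed when adjusted. In the other marker lists such p-values (limma) were lower for 3 neuroblast and neuron markers. They were also lower for 1 astrocyte, 1 fibroblast and mural and 1 microglia marker, and higher for 1 astrocyte marker. Of the astrocyte markers Gfap differed by 1.06 with overlapping groups, while Aldoc (0.27) and Atp1b2 (0.19) were higher and Sox9 (-0.25) lower with no overlap.

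Neural stem cell markers were above 0 for 7 of 11 (median 0.02), at 9.95 to 10.10 in control and 10.06 to 10.17 without active SIRT1. Microglia markers were below 0 for 10 of 11 (median -0.07), at 6.87 to 6.95 against 6.81 to 6.85, and 5 of them were lower with no overlap. These microglia means lay under every array median (7.36 to 7.39). Among tested probe sets 60.1% were below 0, 6.71% were lower without overlap and 2.62% were higher without overlap. Groups were also separate for Dcx (-0.31), Gap43 (-0.31), Hopx (-0.15) and Col1a1 (-0.15), all lower, and for Slco1a4 (0.23), higher. Ependymal markers were below 0 for 6 of 8 (median -0.08), at 6.93 to 7.07 against 6.90 to 6.97, and endothelial markers for 5 of 8 (median -0.05), at 6.73 to 6.82 against 6.74 to 6.81. RMA values have no zero, so no marker can be called absent. The part of cell composition in the values of the imprinted genes was not tested.

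**Figure D5:**
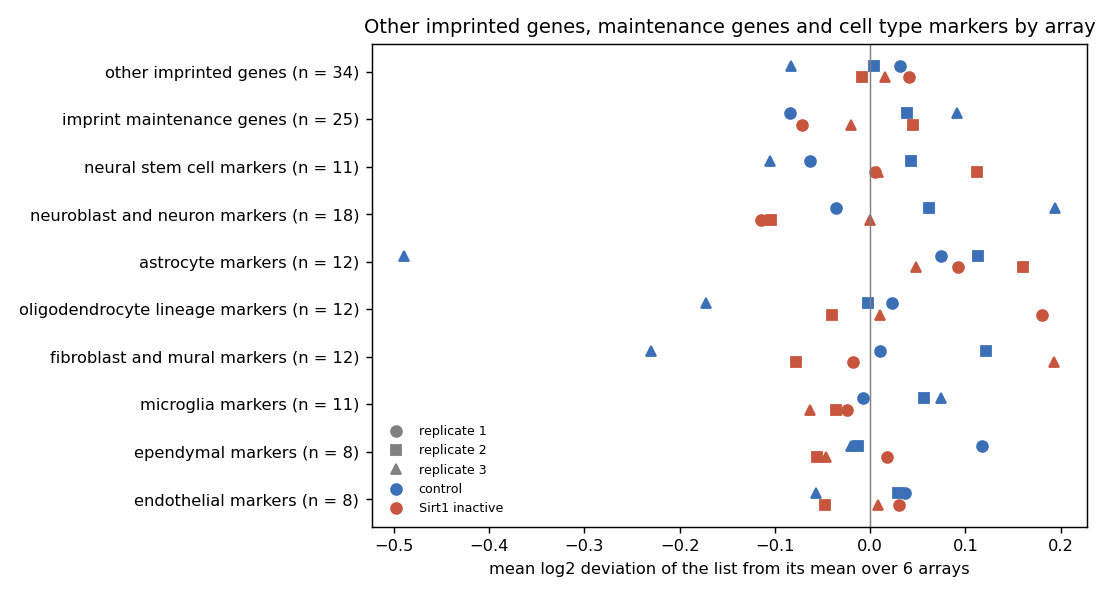
Mean log2 deviation (horizontal axis) of other imprinted genes, imprint maintenance genes and 8 marker lists from their own mean over 6 arrays, with control cultures in blue, Sirt1 inactive cultures in red and the replicate number as marker shape. Control replicate 3 is lowest for astrocyte markers (-0.49) and highest for neuroblast and neuron markers (0.19).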

How the data were processed

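Each of 6 cultures, 3 per genotype, gave 1 array. The authors deposited log2 expression values made with RMA, per the labels and the series' design text; the log2 scale was read from the values. Neither the version of RMA nor the annotation's build is given in the sources used here. RMA makes array distributions nearly equal and compresses differences of dim probe sets. Of 34760 probe sets, 21640 carry 1 gene in GEO's annotation of the platform, 1321 carry several and 11799 are unnamed here; the 22961 with a gene were tested. By Entrez identifier, 21553 of the single-gene probe sets were found in RefSeq (GRCm38.p6), with 0 symbols changed, and promoter sequences come from RefSeq in that build.

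Differences are Sirt1 inactive minus control, from limma 3.58.1 in R 4.3.3 (two-sided, Benjamini-Hochberg over the tested probe sets, threshold 0.05). The fit was tested on 10 simulated data sets with 200 changed probe sets each. At the adjusted threshold it recovered 50.4% of log2 changes of 0.5, 87.7% of 1 and 97.9% of 2. A count of 0 past the threshold therefore does not show that smaller changes were absent. The number of arrays limits the precision, with a median standard error of 0.080. The 3 same-numbered pairs correlated in their deviations, so a fit with the replicate number as a block was an alternative, with other scalings, variance priors, array weights, filters and each array left out. Members and gene lists were chosen with earlier results of these data known. Array values are given for Peg3, Zim1, Asb4 and Nnat and for the other listed members with separate groups. They are also given for the gene with the widest difference in each domain with at least 2 measured genes. Of the other imprinted genes and the maintenance genes, the 3 widest differences and genes with separate groups are named. Of the marker lists, genes with separate groups are named, apart from the 5 microglia markers, and so are Nes, Sox2 and Gfap. Igf2, Igf2r, Dnmt1, Uhrf1 and Trim28, and the neighbouring genes, were named after their values were seen.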

Additional observations from a re-analysis of the deposited data

How the results depend on the processing

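The count of 0 probe sets past the adjusted threshold was 0 under every alternative run, with the replicate block included; the smallest adjusted p was 0.51 with the block and 0.38 with array weights, the lowest among the fits over the 22961 tested probe sets or a subset of them. With the replicate block the imprinted genes below 0 stayed at 24 of 35 and their median at -0.05, since pairing leaves the differences unchanged. The imprinted genes with an unadjusted p under 0.05 (limma) numbered 6 in place of 4. Over all 22961 tested probe sets such p-values numbered 1741 in place of 830. As the list was drawn up from this contrast, nothing is read from these counts. The median difference of the imprinted genes was -0.025 with array medians subtracted, where 21 were below 0 and 48.9% of all tested probe sets were, against 60.1% as deposited. Without probe sets below the median brightness 12 of the 21 imprinted genes left were below 0, where 53.6% of all probe sets left were. Fewer genes were tested there. With 1 array left out at a time the median ran from -0.056 to -0.024, the latter without control replicate 3. The number below 0 then ran from 21 to 25, and the share of all tested probe sets below 0 from 53.7% to 61.5%. With array weights 22 imprinted genes and 55.9% of all tested probe sets were below 0. Of the 35 differences, 27 kept their sign with array weights and 26 without control replicate 3, the fewest among the alternatives that measured all 35. Peg3, Usp29, Zim1, Asb4, Nnat and Grb10 were below 0 in every alternative that measured them. The cause of these shifts was not tested. Signal over background was not available from the deposited values, which limits what can be said of dim genes such as Usp29, Asb4 and Rian.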
